A study of Mus musculus with 10 samples.

Results

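The methionine cycle and the one-carbon enzymes around it were followed through 9 genes: Mat1a, Gnmt, Pemt, Ahcy, Cbs, Cth, Bhmt, Mtr and Shmt1. They were taken by name from the genes that have a probe set of their own on the array, 9 of 22180. The choice was made with earlier results of these data known. The 9 genes occupied 10 rows of the expression table because Ahcy had 2. Livers of 5 wild-type and 5 double knockout mice were compared on 10 arrays. The double knockout mice lacked both macroH2A1 and macroH2A2, histone H2A variants with a large additional domain, and the labels do not say how the alleles were made. Both groups shared everything else the labels state: male mice of strain 129/S6 (taconic), 2 months old, fasted for about 16 h before they were killed between 9 and 10 in the morning. The labels number the livers within a group without saying that each came from its own animal, so p-values measure the spread between these samples.

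In liver, methionine is turned into S-adenosylmethionine, the methyl donor of the cell, and the product of methyl transfer, S-adenosylhomocysteine, is cleaved to homocysteine. Homocysteine either receives a methyl group again, from betaine or from methyl-folate, and so returns to methionine, or it is drawn off through transsulfuration to cysteine. Hepatocytes hold most of this traffic, with forms of several enzymes that few other cells use.

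The tissue label was checked first. All 12 hepatocyte markers lay above 6.54 on the log2 scale, the 95th percentile of 1108 olfactory receptor probe sets, which serve here as a background. Their list mean came to 12.90 ± 0.064 for wild-type livers and 12.87 ± 0.030 for double knockout livers (SD over 5 arrays each). Of the 2 knocked-out genes, Macroh2a1 fell, reading 9.51 to 9.66 in wild-type livers and 9.02 to 9.18 in double knockout livers (log2 difference -0.49, SE 0.048, limma adjusted p = 0.00128), so the row still read well above the olfactory percentile there. Macroh2a2 had group means below that percentile and overlapping groups, 5.86 to 6.55 against 5.99 to 6.44, with a difference of -0.20 (SE 0.13, limma adjusted p = 0.514), and does not check the labels. Which part of either gene was deleted is not stated in the labels, so the position of these probes relative to it is unknown. Pancreas acinar markers stood high in 4 livers, wild-type replicates 4 and 5 and double knockout replicates 1 and 2, and results without these livers are given at the end. All 9 enzymes had a mean above the percentile. Values of different probe sets are not comparable as amounts of RNA, so each gene is compared only with itself between livers. In whole liver, fewer cells of a type and less RNA per cell cannot be told apart.

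No enzyme of the 9 passed the test. A row was called at a limma adjusted p under 0.05 over the 25335 tested rows, and 0.884% of all tested rows were called (0.553% lower and 0.332% higher, and 1.44% of those above the olfactory percentile), while 0 of the 9 enzymes were, with limma adjusted p from 0.12 for Gnmt to 0.992 for Mtr. The balance of 140 lower and 84 higher called rows turned to 96 lower and 126 higher without wild-type replicate 1 and to 120 lower and 133 higher without double knockout replicate 1. At an unadjusted p under 0.05 in limma there were 3 of 9, Gnmt, Cbs and Bhmt, all with lower means in double knockout livers, against 7.6% of tested rows in that direction and 15.1% in either. The unadjusted shares were not counted for rows above the olfactory percentile, where all 9 enzymes lay. At a limma adjusted p under 0.1, which 2.31% of tested rows passed, there were also 0 of 9. Gnmt and Cbs were also the 2 enzymes whose groups did not overlap. In the lower direction this held for 2.15% of all tested rows and 3.35% of those above the olfactory percentile. In the higher direction 0 of the 9 enzymes and 1.75% of tested rows did not overlap. Of the main rows 5 had lower and 4 had higher means in double knockout livers, and the median of the 9 log2 differences was -0.077, beside -0.0030 for all tested rows. The 4 higher means differed by at most 0.015. Because the 9 enzymes were chosen with earlier results of these data known, their counts beside these shares are a description and not a test.

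**Figure D1:**
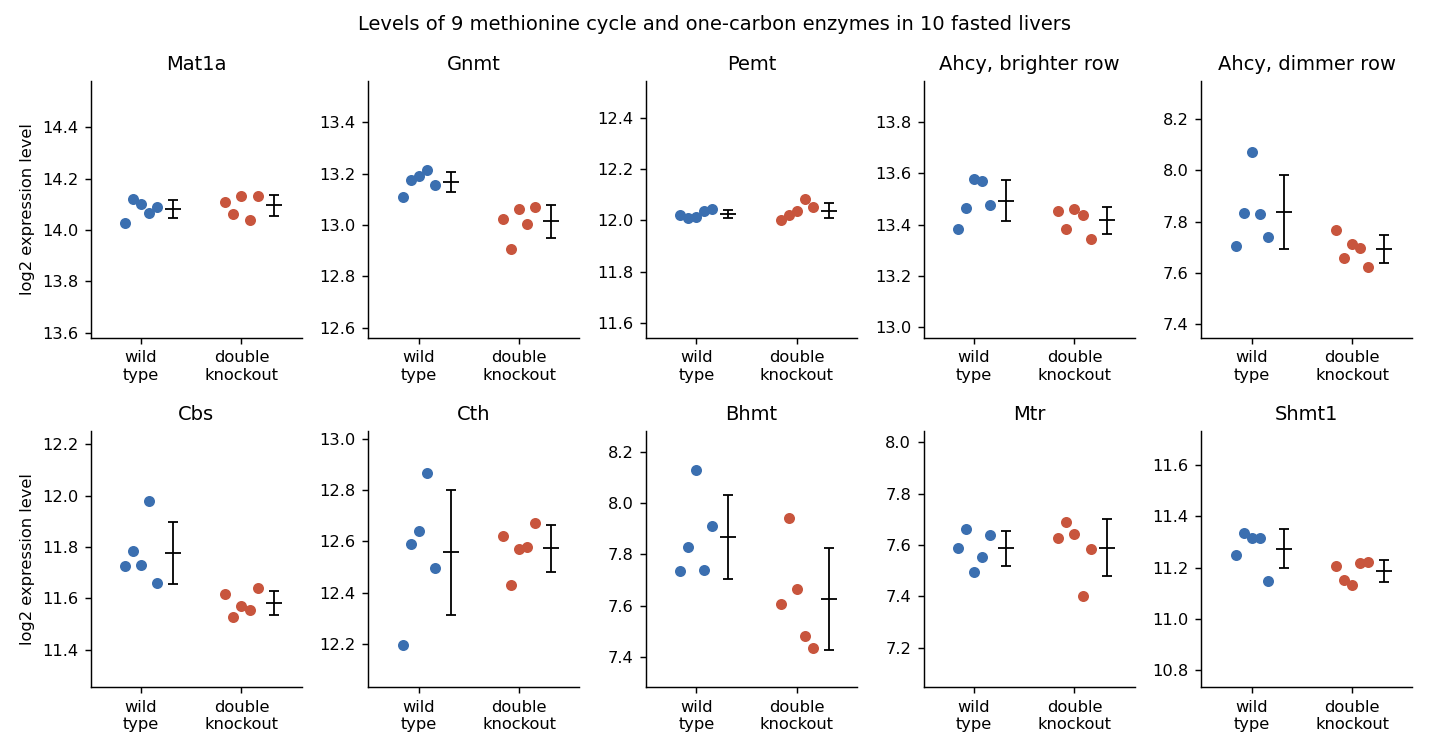
Log2 expression level (vertical axis, every panel spanning 1 log2 unit) of the 9 enzymes in 5 wild-type (blue) and 5 double knockout (red) livers, with Ahcy shown for both of its rows; points are arrays in replicate order, and black bars give the mean and SD. The red points of Gnmt, at 12.91 to 13.07, and of Cbs, at 11.53 to 11.64, lie below every blue point, while those of the other 7 genes overlap with the blue points.

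The 250 bases before the start of the 4 enzymes of lowest p, Gnmt, Cbs, Bhmt and Shmt1, are shown side by side. Their means were lower in double knockout livers, as was that of Ahcy, whose window is described below without its sequence. They come from RefSeq on GRCm38.p6, each on the minus strand and written 5′ to 3′ toward the gene: Gnmt at chr17:46729166-46729415, Cbs at chr17:31637206-31637455, Bhmt at chr13:93637759-93638008 and Shmt1 at chr11:60811266-60811515. Capitals mark exact matches, on either strand, to CCAAT (the CCAAT box), GGGCGG (the GC box), TATAAA (the TATA box), CACGTG (an E-box) and TGACGTCA (the cAMP response element). Matches that overlap are joined into 1 run of capitals.
Gnmt: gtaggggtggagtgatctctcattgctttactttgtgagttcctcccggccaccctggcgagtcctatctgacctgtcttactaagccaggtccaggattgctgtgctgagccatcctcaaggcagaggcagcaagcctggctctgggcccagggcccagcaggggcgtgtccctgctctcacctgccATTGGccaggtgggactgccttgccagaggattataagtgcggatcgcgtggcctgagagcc
Cbs: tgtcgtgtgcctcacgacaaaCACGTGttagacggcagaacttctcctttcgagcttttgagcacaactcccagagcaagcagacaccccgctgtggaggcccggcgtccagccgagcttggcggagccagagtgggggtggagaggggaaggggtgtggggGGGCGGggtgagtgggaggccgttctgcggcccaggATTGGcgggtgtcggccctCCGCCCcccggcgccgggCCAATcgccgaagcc
Bhmt: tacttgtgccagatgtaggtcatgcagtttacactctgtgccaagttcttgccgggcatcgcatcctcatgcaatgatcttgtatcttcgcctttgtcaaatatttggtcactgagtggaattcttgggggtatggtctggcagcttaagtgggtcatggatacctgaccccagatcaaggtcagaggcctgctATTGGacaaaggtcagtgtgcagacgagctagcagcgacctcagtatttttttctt
Shmt1: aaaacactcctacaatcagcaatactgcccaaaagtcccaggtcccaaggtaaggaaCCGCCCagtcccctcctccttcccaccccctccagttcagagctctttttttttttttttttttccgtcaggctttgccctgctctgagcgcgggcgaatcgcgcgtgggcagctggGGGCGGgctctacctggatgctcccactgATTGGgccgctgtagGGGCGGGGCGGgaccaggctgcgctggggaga
Each of the 4 windows holds a CCAAT match on the opposite strand, written ATTGG, that begins 62 bases before the start in Gnmt, 52 in Cbs, 56 in Bhmt and 47 in Shmt1. A CCAAT match on either strand occurred anywhere in the window in 33.8% of 32851 RefSeq promoter windows of this length, and in 4.29% it began between 47 and 62 bases before the start, an interval set from these 4 genes themselves. The 4 genes were chosen by their p in these data, so the 4.29% does not test them. Ahcy, the other member with a lower mean, has its only CCAAT match 237 bases before the start. Mtr has matches at 151 and 101 bases. Pemt has 1 window with a match, at 248 bases, and another window without a match. For Mat1a and Cth no promoter window was available, so these enzymes were not examined for matches. GC box matches were present in Cbs and Shmt1 (32.7% of all windows) and the E-box only in Cbs among the 4 (6.02%), with no match to the TATA box (12.4%) or the cAMP response element (1.55%) in these 4. A match of letters is a description and not a measured binding site.

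Gnmt and Mat1a stand at the head of the cycle. Mat1a makes S-adenosylmethionine in hepatocytes, and Gnmt, glycine N-methyltransferase, spends it on glycine and is regarded as the enzyme that disposes of an excess. Gnmt stood at 13.11, 13.17, 13.19, 13.21 and 13.16 in wild-type replicates 1 to 5 and at 13.02, 12.91, 13.06, 13.00 and 13.07 in double knockout replicates 1 to 5. The lowest wild-type liver therefore lay above the highest double knockout liver, by a narrow margin, and double knockout replicate 2 was the lowest of all. The log2 difference was -0.15 (SE 0.043, 95% interval -0.25 to -0.061), a level lower by 10.2% as an estimate (percent change -10.2), and it was not called (limma adjusted p = 0.12).

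Mat1a showed the reverse of a separation. Its wild-type values were 14.03, 14.12, 14.10, 14.07 and 14.09 and its double knockout values 14.11, 14.06, 14.13, 14.04 and 14.13, with both groups covering the same range. The difference of 0.014 (SE 0.039, limma adjusted p = 0.914) had a 95% interval from -0.070 to 0.098, so changes of Mat1a beyond -4.75% or 7.06% lie outside it. The mean level of this row stood at percentile 99.99 of the tested rows, and whether signals at that end of the scale were compressed could not be read from the table.

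Pemt uses S-adenosylmethionine to build phosphatidylcholine from phosphatidylethanolamine, a large methyl consumer in liver. Its levels were the most even of the 9 genes in wild-type livers, at 12.02, 12.01, 12.01, 12.03 and 12.04, and double knockout livers read 12.00, 12.02, 12.03, 12.08 and 12.05. The groups overlapped, with a difference of 0.014 (SE 0.035, 95% interval -0.063 to 0.090, limma adjusted p = 0.907).

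Ahcy cleaves S-adenosylhomocysteine, the product inhibitor of methyltransferases, into homocysteine and adenosine. Its 2 rows differed in level, and the brighter one was taken as its main row by the rule of the highest mean. On that row wild-type livers had 13.38, 13.46, 13.58, 13.57 and 13.48 and double knockout livers 13.45, 13.38, 13.46, 13.44 and 13.34. The groups overlapped on it, with a difference of -0.077 (SE 0.048, 95% interval -0.18 to 0.028, limma adjusted p = 0.50). On the dimmer row wild-type livers ranged from 7.71 to 8.07 and double knockout livers from 7.62 to 7.77, a difference of -0.14 (SE 0.065, 95% interval -0.29 to -0.0030, limma adjusted p = 0.32), again with overlap. Both rows thus pointed downward and neither was called. RefSeq places Ahcy on chromosome 2, and the 10 nearest single-gene rows in probe set order around the dimmer row all belong to genes of chromosome 2. Around the brighter row 10 of 10 belong to genes of chromosome 16 and 0 to chromosome 2, which was the case for no other member row, so which locus the brighter row was designed on is uncertain.

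Homocysteine leaves the cycle through Cbs, cystathionine beta-synthase, and Cth, cystathionine gamma-lyase, the pair of enzymes of transsulfuration. Cbs read 11.73, 11.78, 11.73, 11.98 and 11.66 in wild-type livers and 11.62, 11.53, 11.57, 11.55 and 11.64 in double knockout livers. As with Gnmt the groups did not overlap, but wild-type replicate 5 lay just above double knockout replicate 5, and wild-type replicate 4 stood highest. The difference was -0.19 (SE 0.058, 95% interval -0.32 to -0.068, percent change -12.6) and was not called (limma adjusted p = 0.143). Without wild-type replicate 4 it was -0.14 (SE 0.044, limma adjusted p = 0.199).

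Cth was the least even of the 9 genes among wild-type livers, at 12.20, 12.59, 12.64, 12.86 and 12.50, and was more even among double knockout livers, at 12.62, 12.43, 12.57, 12.58 and 12.67. The double knockout values lay inside the wild-type range. The difference of 0.015 (SE 0.10, limma adjusted p = 0.966) had a wide 95% interval, from -0.20 to 0.23, and its sign was not stable: without wild-type replicate 1 it was -0.075 (SE 0.075, limma adjusted p = 0.722), without wild-type replicate 5 it was -0.00035 and without double knockout replicate 5 it was -0.0089. The SD among wild-type livers was 0.24, and that among double knockout livers 0.090, a contrast in spread that was not tested.

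Bhmt and Mtr return homocysteine to methionine, Bhmt with betaine and Mtr, methionine synthase, with methyl-folate. Bhmt had 7.74, 7.83, 8.13, 7.74 and 7.91 in wild-type livers and 7.61, 7.94, 7.67, 7.48 and 7.43 in double knockout livers. Of the double knockout livers 4 lay below every wild-type liver, and replicate 2 lay among the upper wild-type values. This was the widest difference of the 9, -0.24 (SE 0.0998, 95% interval -0.46 to -0.024, percent change -15.4), and it was not called (limma adjusted p = 0.275). Bhmt is known as an abundant transcript of liver, but its only row averaged 7.75, at percentile 64.9 of the tested rows, and the probes were not checked, so what this row measures is uncertain. Bhmt2, a neighbouring homologue that methylates homocysteine from S-methylmethionine, had a difference of -0.024 (SE 0.058, limma adjusted p = 0.899). Bhmt lies on chromosome 13, as does Macroh2a1, and so do Mtr, Bhmt2, Mtrr, Dmgdh and Tpmt among the related genes named here. Macroh2a2 lies on chromosome 10, as do Gamt, Ftcd, Mthfd1l, Suox and Chpt1 among the related genes named here. Whether these positions have a part in any difference was not tested.

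Mtr read 7.59, 7.66, 7.50, 7.55 and 7.64 in wild-type livers and 7.63, 7.69, 7.64, 7.40 and 7.59 in double knockout livers. The groups overlapped almost entirely, with a difference of 0.0022 (SE 0.058, 95% interval -0.12 to 0.13, limma adjusted p = 0.992). Its sign turned when any of 5 single livers, wild-type replicates 3 and 4 and double knockout replicates 1 to 3, was left out. Mtrr, the reductase that keeps methionine synthase active, had 0.020 (SE 0.049, limma adjusted p = 0.903).

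Shmt1, the cytosolic serine hydroxymethyltransferase, moves a carbon unit from serine to folate. Wild-type livers had 11.25, 11.34, 11.32, 11.32 and 11.15 and double knockout livers 11.21, 11.15, 11.13, 11.22 and 11.22. Wild-type replicate 5 sat among the double knockout livers and the other 4 wild-type livers lay above all of them. The difference was -0.087 (SE 0.046, 95% interval -0.19 to 0.014, limma adjusted p = 0.409).

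**Figure D2:**
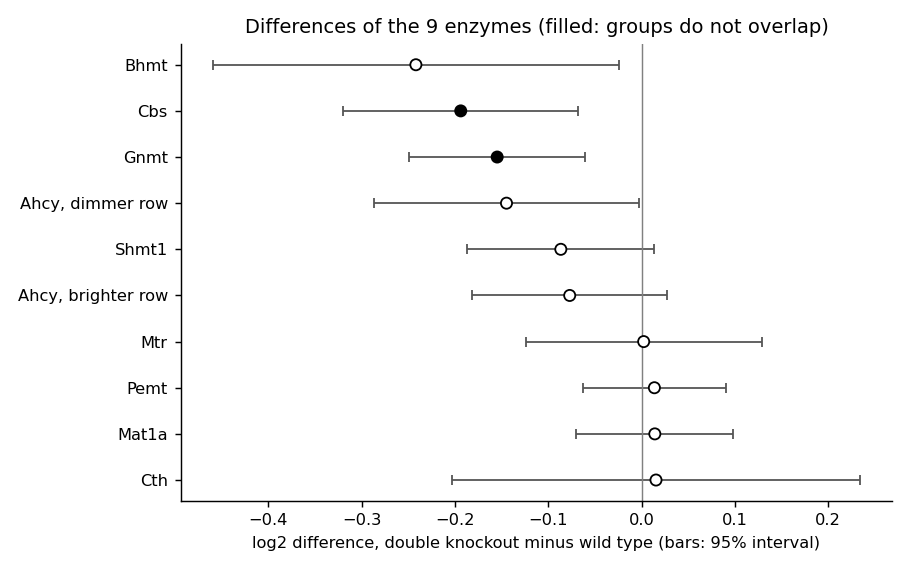
Log2 difference (horizontal axis, double knockout minus wild type, n = 5 each) with its 95% interval from limma for each row of the 9 enzymes, filled where the groups do not overlap. The intervals of Bhmt, Cbs, Gnmt and the dimmer Ahcy row lie below 0 before adjustment for the 25335 rows tested, and the other 6 intervals include 0.

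The livers did not order the enzymes alike. Relative to each gene's own mean over the 10 arrays, 8 of 9 enzymes were above it in wild-type replicate 2 and 7 in replicate 3, but 3 of 9 in wild-type replicate 1. Double knockout replicates 2 and 4 had 2 of 9 above and replicate 3 had 5. Among livers of the same genotype, after each group's mean was subtracted, Gnmt and Cth varied together (Pearson r = 0.75 over 10 arrays, permutation p = 0.00085, adjusted p = 0.0306 over 36 pairs, two-sided). Spearman's rho was 0.782 (permutation p = 0.00917, adjusted p = 0.125). Without the 2 livers farthest from the median of Gnmt, double knockout replicate 2 and wild-type replicate 1, r was 0.576. That was the 1 pair of 36 to pass on Pearson's r, and 0 passed on Spearman's rho. Cbs had r = 0.733 with Cth (permutation p = 0.0975, adjusted p = 0.615; rho = 0.818, permutation p = 0.0104, adjusted p = 0.125) and r = 0.592 without wild-type replicates 4 and 5.

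**Figure D3:**
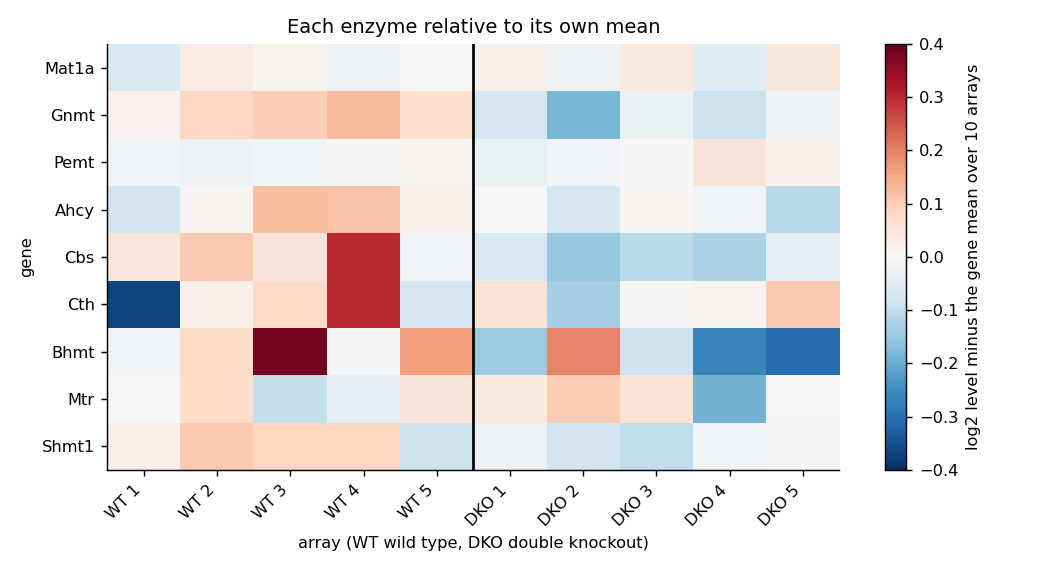
Log2 level of each enzyme (rows) in each array (columns) minus the gene's mean over the 10 arrays, blue for below and red for above. For Gnmt and Cbs all 5 double knockout values are below 0, from -0.18 to -0.022 for Gnmt and from -0.15 to -0.038 for Cbs, some of them pale, Cth and Bhmt show the strongest single-array departures, and Mat1a and Pemt stay near white throughout.

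Genes with the most similar pattern were sought among 12219 single-gene rows above the olfactory percentile, by Pearson r of the levels over the 10 arrays. Being the highest of so many, and including the difference between the groups, these values have no test. For Gnmt they were the non-coding RNA gene Snhg11 (r = 0.958), Cyth1 (0.954) and Spata2l (0.934). Cbs was followed most closely by Aldh1b1, a mitochondrial aldehyde dehydrogenase (r = 0.98), Slc2a5, a fructose transporter (0.972), and Tmem241 (0.945). For Bhmt the nearest were the immediate early gene Egr1 (r = 0.952), Syne1 (0.907) and Zkscan17 (0.898).

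The wider pathway was read from 6 lists with 95 genes besides the 9, of which 82 had a row of their own. Here 2 fell and 0 rose, 2.44% of the 82 against 0.884% of all tested rows and 1.44% of rows above the olfactory percentile. Of the 82 genes 52 had lower and 30 higher means (63.4% lower, against 51.5% of all tested rows and 54.3% of rows above the olfactory percentile), with a median difference of -0.028. The groups did not overlap for 10 genes, all lower, which is 12.2% of the 82 against 3.9% of tested rows in either direction. In the lower direction it was 2.15% of tested rows and 3.35% of rows above the olfactory percentile. At an unadjusted p under 0.05 in limma were 21 lower and 2 higher genes, 25.6% and 2.44% of the 82, against 7.6% and 7.52% of all tested rows. The unadjusted shares were not counted for rows above the olfactory percentile, where 76 of the 82 genes lay. The lists were chosen with earlier results of these data known, so these shares describe them and do not test them.

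Both called genes fell. Hnmt, which inactivates histamine with S-adenosylmethionine, stood at 8.04, 8.09, 7.86, 7.82 and 7.88 in wild-type livers and at 7.41, 7.49, 7.60, 7.35 and 7.40 in double knockout livers. Every double knockout liver was well below every wild-type liver, and the log2 change was -0.49 (SE 0.065, limma adjusted p = 0.00617). Agxt2, a mitochondrial aminotransferase that uses glyoxylate and forms glycine, had 11.38, 11.44, 11.48, 11.35 and 11.38 against 11.18, 11.16, 11.15, 11.07 and 11.14. Its groups were likewise apart, with a change of -0.27 (SE 0.042, limma adjusted p = 0.0152). The Agxt2 call was lost without wild-type replicate 2 (limma adjusted p = 0.0552) or double knockout replicate 4 (0.0501), and with the replicate number as a block (0.068).

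Of 11 other measured methyltransferases, Hnmt included and most of them for small molecules, 7 had lower means, with a list median of -0.089. That median was the value of Icmt, which methylates prenylated proteins. Inmt, which methylates indole amines, had -0.27 (SE 0.066, limma adjusted p = 0.0796), Tpmt, thiopurine methyltransferase, had -0.14 (0.045, 0.168) and Gamt, the last step of creatine synthesis, had -0.18 (0.070, 0.243), each followed by its SE and limma adjusted p. Inmt and Tpmt did not overlap between the groups. None of these 3 was called.

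The list of methionine cycle, betaine and salvage genes had 19 measured members, 11 with lower means, a median of -0.019 and 0 called. Sardh, sarcosine dehydrogenase, which undoes the reaction of Gnmt in mitochondria and passes the carbon unit to folate, was at 12.47 to 12.62 in the wild-type livers and 12.13 to 12.38 in the double knockout livers, with no overlap, a difference of -0.26 (SE 0.058) and a limma adjusted p of 0.0614. Aldh7a1, which can oxidise betaine aldehyde, had -0.14 (SE 0.043, limma adjusted p = 0.162). Its groups did not overlap, but only just, with a lowest wild-type value of 12.4945 and a highest double knockout value of 12.4944. Dmgdh, which oxidises dimethylglycine, had -0.12 (SE 0.049, limma adjusted p = 0.28). In the other direction, Srm, spermidine synthase, had 0.23 (SE 0.080, limma adjusted p = 0.203) and Mri1, of the methionine salvage path, 0.14 (SE 0.056, limma adjusted p = 0.264).

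Folate genes had lower means for 13 of 20, with a median of -0.026 and 0 called. The 4 of lowest p were all lower: Aldh1l1, which oxidises formyl-folate, with -0.28 (SE 0.074, limma adjusted p = 0.108), Ftcd, which takes carbon from histidine breakdown, with -0.18 (SE 0.050, limma adjusted p = 0.12), Mthfd1l with -0.17 (SE 0.057, limma adjusted p = 0.184) and Mthfd1 with -0.13 (SE 0.045, limma adjusted p = 0.185). Mthfd1 and Ggh (-0.15, SE 0.051, limma adjusted p = 0.185) did not overlap between the groups.

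Serine and glycine genes had lower means for 9 of 12, with a median of -0.080 and 1 called, Agxt2. Gldc, the glycine decarboxylase of the glycine cleavage system, was at 12.02 to 12.26 in the wild-type livers and 11.90 to 11.97 in the double knockout livers, again without overlap, with -0.22 (SE 0.049, limma adjusted p = 0.0637). Its partner Amt had -0.16 (SE 0.076, limma adjusted p = 0.359) and Agxt -0.19 (SE 0.085, limma adjusted p = 0.325).

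Downstream of transsulfuration, 8 of 11 sulfur amino acid genes had lower means, with a median of -0.066 and 0 called. Sqor, which oxidises sulfide, had -0.19 (SE 0.049, limma adjusted p = 0.0895), Ethe1, of the same route, -0.24 (SE 0.095, limma adjusted p = 0.262), and Mpst and Suox -0.091 and -0.089 (limma adjusted p = 0.395 and 0.412). The phosphatidylcholine and choline list had lower means for 4 of 9, a median of 0.039 and 0 called. It also held Pcyt2, Selenoi and Etnk1, which belong to phosphatidylethanolamine synthesis. The median was the value of Pcyt1b, whose mean level of 5.87 lay below the olfactory percentile. In this list the 4 members of lowest p were the choline transporter Slc44a1 with -0.21 (SE 0.055, limma adjusted p = 0.108), which did not overlap, Pcyt2 with -0.18 (SE 0.049, limma adjusted p = 0.117), Chpt1 with -0.11 (SE 0.064, limma adjusted p = 0.488) and Pcyt1a with -0.064 (SE 0.057, limma adjusted p = 0.663).

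**Figure D4:**
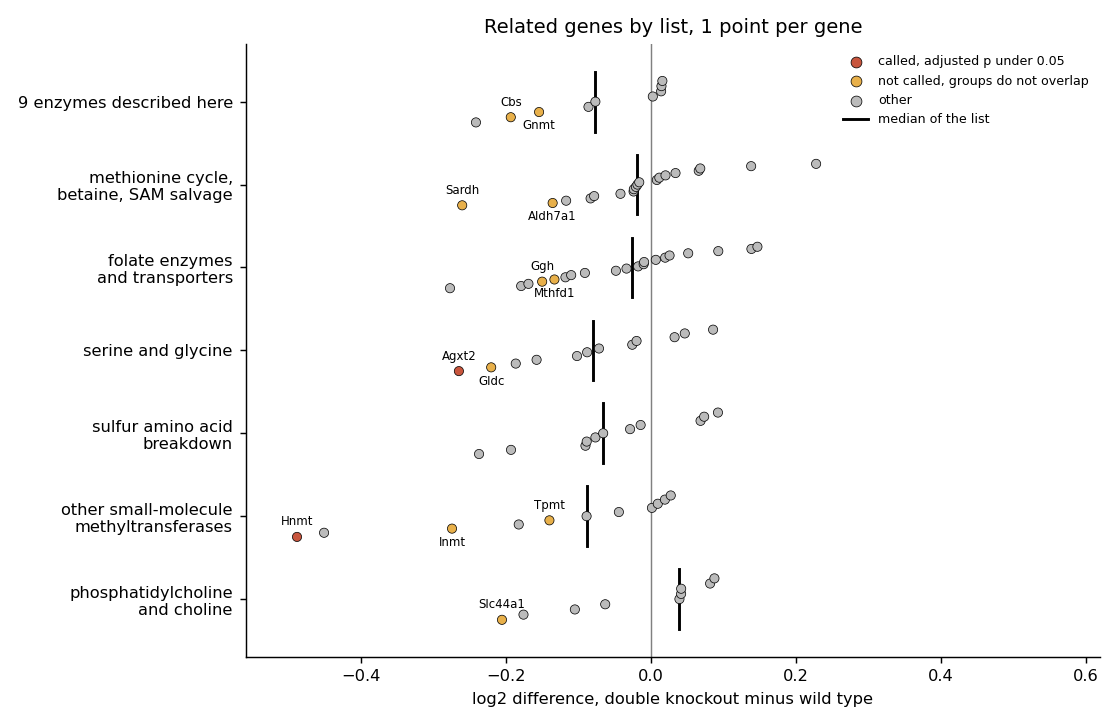
Log2 difference (horizontal axis, double knockout minus wild type) of the 9 enzymes and of the measured genes of 6 related lists, 1 point per gene at its brightest row, with the list median as a black bar. The 2 called genes, Hnmt and Agxt2, are red, the genes that do not overlap between groups without being called are yellow, and all of these lie to the left of 0.

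Markers of other cells differed between livers. The mean of 15 macrophage markers ran from 8.80 to 9.12 in wild-type livers and from 9.04 to 9.35 in double knockout livers. Of these markers 15 of 15 were higher in the mean and 2 were called. Among all tested rows 51.5% were lower in the mean and 0.332% were called higher. The endothelial, stellate cell, cholangiocyte, erythroid and lymphocyte lists each had 0 called. Pancreas acinar markers (mean of 11) reached 9.90 and 11.01 in replicates 4 and 5 of the wild type and 8.73 and 8.97 in replicates 1 and 2 of the double knockout, against 6.09 to 6.83 in the other 6 livers. Without those 4 livers the differences were -0.11 for Gnmt (SE 0.055, limma adjusted p = 0.439), -0.16 for Cbs (SE 0.055, limma adjusted p = 0.284) and -0.37 for Bhmt (SE 0.11, limma adjusted p = 0.223). Hnmt had -0.55 (limma adjusted p = 0.0699) and Agxt2 -0.31 (limma adjusted p = 0.0951) in the same 6 livers, so the differences of Hnmt and Agxt2 were no smaller there while both calls were lost. With the macrophage mean as a covariate, which is itself higher in double knockout livers, Gnmt had -0.13 (SE 0.066, limma adjusted p = 0.517), Cbs -0.24 (SE 0.088, limma adjusted p = 0.322), Bhmt -0.41 (SE 0.14, limma adjusted p = 0.291), Hnmt -0.42 (SE 0.098, limma adjusted p = 0.151) and Agxt2 -0.25 (SE 0.064, limma adjusted p = 0.191). The part of macrophage content in these results was not tested further.

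**Figure D5:**
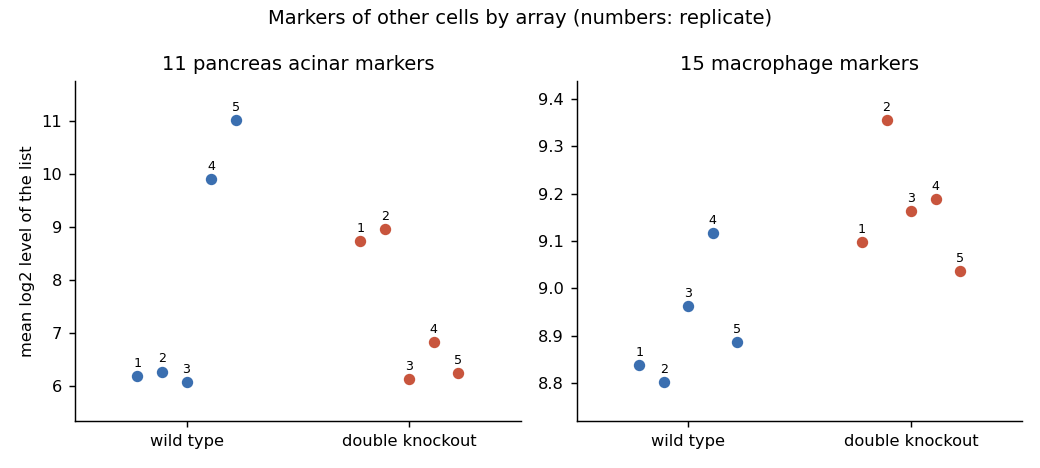
Mean log2 level (vertical axes, own scale in each panel) of pancreas acinar markers (left) and macrophage markers (right) in each liver, with replicate numbers beside the points. Pancreas markers are high in 2 livers of each group, and macrophage markers are higher in most double knockout livers with some overlap.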

How the data were processed

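The deposited table gives log2 expression levels for 41345 rows on 10 arrays. Per the submitters' processing notes, the authors made it with Affymetrix Expression Console. Summarisation, normalization and program version were not given in the sources used here. Quartiles differed by at most 0.046 between arrays, so the deposited log2 values were used without further scaling. Per the labels' protocols, labelled cDNA was made from 250 ng of total RNA. The number of arrays limits the precision.

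Rows were named through the platform annotation: 23521 had 1 gene symbol and 1814 several, and these 25335 were tested in R 4.3.3 by limma 3.58.1 (group as the only term, moderated by eBayes, Benjamini-Hochberg adjustment, 8 residual and 3.96 prior degrees of freedom). A gene's row with the highest mean represented it, and other member rows are given too. The script was tested on simulated data. The members and lists were chosen with earlier results of these data known.

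Named were all member rows, the knocked-out genes, called list genes, the 4 genes of lowest p in each list and the 3 genes nearest in pattern to each of the 3 members of lowest p. Ggh, Dmgdh, Bhmt2, Mtrr, Got1 and Nnmt were named after their values were seen. Correlations used 100000 permutations within groups. Alternatives were eBayes options, array weights, rescaling, filters, covariates, a replicate block, another threshold and fewer arrays. Replicate numbers gave no sign of pairing the livers: same-numbered deviations correlated at -0.48 to 0.13, which does not exclude a pairing.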

Additional observations from a re-analysis of the deposited data

How the results depend on the processing

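All 9 enzymes stayed uncalled in all alternatives run, and Gnmt (-0.17 to -0.11), Cbs (-0.24 to -0.14), Bhmt (-0.41 to -0.18), Shmt1 (-0.12 to -0.061), Ahcy (-0.14 to -0.047), Mat1a (0.00059 to 0.047) and Pemt (0.0026 to 0.042) kept their sign. The lowest limma adjusted p of Gnmt was 0.0524, with an intensity trend. Cth turned to -0.085 with the macrophage mean as covariate and ran from -0.075 to 0.092 without single arrays. Mtr turned to -0.011 with array weights, -0.022 with the olfactory mean as covariate and -0.038 without the 4 arrays of highest pancreas mean, and ran from -0.023 to 0.049 without single arrays. Called rows numbered 224, against 377 with a filter on low levels, 75 with all rows tested, 13 and 53 with the macrophage and olfactory means as covariates, 68 without the 4 pancreas-high arrays, 585 at an adjusted p under 0.1 and 64 (without wild-type replicate 2) to 253 without single arrays. Called pathway genes numbered 2, against 4 with an intensity trend or the filter (Sardh and Gldc added), 6 at an adjusted p under 0.1 (Inmt and Sqor as well), 1 with the olfactory mean, 0 with the macrophage mean, 0 without the 4 pancreas-high arrays and 1 to 3 without single arrays (Gldc added without wild-type replicate 5). The replicate block gave 76 called rows and 1 called pathway gene, Hnmt. The numbers gave no sign of pairing the livers, as 0 of 5 wild-type livers correlated best with its own number, but this does not exclude a pairing. The causes of these moves were not tested.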

Other observations

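Cth was set against the 82 related genes over the 10 livers, after each group's mean was subtracted, a comparison chosen after the data were seen. Its closest partners were Got1, a cytosolic aspartate aminotransferase that can also handle cysteine (Pearson r = 0.88, permutation p = 0.00223, adjusted p = 0.106; Spearman's rho = 0.818, permutation p = 0.016, adjusted p = 0.438), and Nnmt, nicotinamide N-methyltransferase (r = 0.868, permutation p = 0.00258, adjusted p = 0.106; rho = 0.915, permutation p = 0.00161, adjusted p = 0.132). Without wild-type replicates 1 and 4, r was 0.818 for Got1 and 0.769 for Nnmt, and 0 of the 82 relations passed the adjustment. Nnmt stood at 6.95, 7.84, 8.42, 8.82 and 7.59 in wild-type and 8.38, 6.82, 7.19, 7.34 and 7.64 in double knockout livers, the widest spread among the related genes named here. Its group difference of -0.45 (SE 0.34, limma adjusted p = 0.594) was therefore within the spread between livers. In wild-type livers Cth and Nnmt were both lowest in replicate 1 and highest in replicate 4, and in double knockout livers both were lowest in replicate 2.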
